A study of Mus musculus with 12 samples.

Results

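The growth hormone and IGF1 axis was followed in regenerating mouse liver on 12 microarrays, through 10 genes: Ghr, Stat5b, Socs2, Cish, Igf1, Igfals, Igfbp1, Igfbp2, Hsd3b5 and Susd4, of 17002 named genes measured. They were chosen by name as the growth hormone receptor, its signal transducer and feedback inhibitors, the IGF1 peptide and its carriers, and growth-hormone-dependent liver genes, and each was found through the RefSeq accession of its probes. They had 15 probes in all: 4 for Igf1, 2 each for Ghr and Stat5b, and 1 for each of the other 7 genes. All 15 probes were well above background on all 12 arrays, so every member passed the filter on dim probes.

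The livers came from male wildtype C57BL/6 mice aged 6 weeks from which 2/3 of the liver was removed (partial hepatectomy, after which the remnant regrows). Sampling was at 0, 1.5, 12 and 24 h after surgery with 3 mice each, taken here as 1 mouse per array. The labels name no mice with sham surgery and no clock time of sampling, so surgery, fasting, anaesthesia and time of day cannot be told apart from time after hepatectomy. In whole liver, fewer cells of a type and less RNA per cell cannot be told apart either.

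Growth hormone from the pituitary binds its receptor on hepatocytes, which activates the kinase JAK2 and the transcription factor STAT5b. STAT5b switches on Igf1, the growth factor that the liver secretes, and Igfals, which stabilises IGF1 in blood, and also Socs2 and Cish, inhibitors that act back on the receptor. In male mice, pulses of growth hormone keep a set of male-biased liver genes on, Hsd3b5 among them. Igfbp1 follows another input: insulin represses it through the FOXO factors, and stress and cytokines raise it.

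Promoter sequences from RefSeq (build GRCm38.p6, 250 bases before to 50 after each start site) were found for 9 of the 10 genes, in 15 windows. They were searched on both strands for TTCNNNGAA, the spaced palindrome that STAT5 dimers bind, and for TNTTTTG, a core of the element through which FOXO factors act. Those from 3 genes are shown because they hold a match close to the start site, in capitals.
Cish, chr9:107296649-107296678, plus strand, 10 bases before to 20 after the start site: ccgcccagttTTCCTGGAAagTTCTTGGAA
Igfals, chr17:24878111-24878230, plus strand, the 120 bases before 1 of its 3 start sites: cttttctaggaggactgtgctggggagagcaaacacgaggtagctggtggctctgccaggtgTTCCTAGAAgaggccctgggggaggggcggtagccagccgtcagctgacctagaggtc
Igfbp1, chr11:7197667-7197786, plus strand, the 120 bases before the start site: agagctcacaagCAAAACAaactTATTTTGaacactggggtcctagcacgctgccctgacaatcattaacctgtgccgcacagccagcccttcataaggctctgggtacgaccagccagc
The Cish stretch holds 2 TTCNNNGAA matches side by side, the Igfals stretch holds 1 starting 58 bases before the start site, and the Igfbp1 stretch holds 2 TNTTTTG matches, 1 on each strand, 108 and 97 bases before it. TTCNNNGAA was present in windows of 2 of the 9 genes (Cish and Igfals) and in 9.55% of all 27025 genes with a window. TNTTTTG was also present in 2 of the 9 (Cish and Igfbp1), and in 20.9% of all genes. These are matches of letters, and no binding was measured here.

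Levels are log2 ratios of the processed spot intensity to the 75th percentile of all probes on that array, so a value of 0 is the intensity at that percentile. Levels of different probes are not compared. Differences were tested with limma over all 31168 probes kept, with 1 mean per time point, and the adjusted p is Benjamini-Hochberg over all of them. A gene with several probes was counted by its brightest probe. Standard errors of log2 changes follow ±, and each group has n = 3.

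The 12 arrays lay on 4 slides, taking arrays with a shared scan time in the file headers as 1 slide, and no slide held both 0 h and 12 h or 24 h arrays. The first held the 3 arrays at 0 h and 1.5 h replicate 1, the second 1.5 h replicates 2 and 3 and 12 h replicates 1 and 2, and the third 12 h replicate 3 and 24 h replicates 1 and 3. The 24 h replicate 2 array was alone on its slide. Its 75th percentile intensity was 6018 (428 to 584 on the other 11), 540 of its spots were marked as outliers (19 to 40 on the others), and its correlations with replicates 1 and 3 at 24 h were 0.912 and 0.906, against 0.986 between these. Summed hepatocyte markers (12 genes, linear scale relative to the 75th percentile) ran from 2320 to 2420 at 0 h, 2270 to 3670 at 12 h and 939 to 1810 at 24 h, the lowest on that array. The highest log2 level of any probe kept was 7.12 on that array and 8.95 to 10.2 on the others. That array had 16 probes above 7, against 183 to 234 on the others, so the top of its range lies lower. Between 6 and 7 that array had more probes than the others, 497 against 174 to 237. Summed adipose markers (6 genes) ran from 0.623 to 0.947 at 0 h, 17.6 to 21.8 at 12 h and 5.47 to 59.7 at 24 h, the highest on that array. Cidec made up 13.1 to 19.1 of the sum at 12 h and 54.8 on that array, and without Cidec the sum was 0.404 to 0.65 at 0 h, 2.67 to 4.52 at 12 h and 4.15 to 4.85 at 24 h. Of the 6, limma called 5 higher at 12 h and 3 at 24 h, while Adipoq was at 0.73 (adjusted p = 0.158) and -0.26. Summed neutrophil markers ran (9 genes) from 1.58 to 2.14 at 0 h and 29.9 to 37.3 at 12 h. The part of these shifts in the results below was not tested. The 24 h values without that array stand beside those with it for members, and for the list genes with a 24 h fold given that it moved by over 1.5 times.

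The members split by time. By 12 h the receptor-side gene Stat5b, the IGF1 carrier Igfals and the steroid enzyme Hsd3b5 had fallen and the IGF-binding protein Igfbp1 had risen. Igf1 itself, Igfbp2, Socs2, Cish and Susd4 gave no call. The counted probe of the receptor gene Ghr gave none either, while its other probe was 3.16-fold lower (limma adjusted p = 0.00935). At 24 h Hsd3b5 and Susd4 were lower than at 0 h, and Igfals was higher than at 12 h. In counts, 4 of 10 members passed at 12 h against 0 h (15.3% of all probes passed; 17.6% of those with an NM accession), 1 higher (7.06% of all probes) and 3 lower (8.26%). At 24 h against 0 h 2 of 10 passed, both lower (background 5.46% in either direction and 2.62% lower), and at 12 h against 1.5 h 3 passed, all lower (8.33% and 5.0%). At 24 h against 12 h 1 passed, higher (13.0% in either direction and 6.26% higher), and 5 passed the F test for any difference from 0 h (16.2%). At 1.5 h against 0 h limma called 0 of 10 (background 0.0225%, or 7 probes). There 2 had an unadjusted p under 0.05, a cut at which the share of all probes was not counted. The 3 arrays of a time point lay all above those at 0 h in 1 member at 1.5 h, 1 at 12 h and 0 at 24 h (16.4%, 40.7% and 13.2% of all probes), and all below them in 2, 4 and 3 members (9.26%, 20.8% and 13.8%). The median of all probes moved by 0.42 at 12 h and by -0.15 at 24 h against 0 h (0.15 and -0.03 under quantile normalization, 0.39 and -0.61 with normexp background correction). Over named genes, each by its brightest probe, the medians were 0.27 and -0.07. The members' medians were -0.50 and -0.48.

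**Figure D1:**
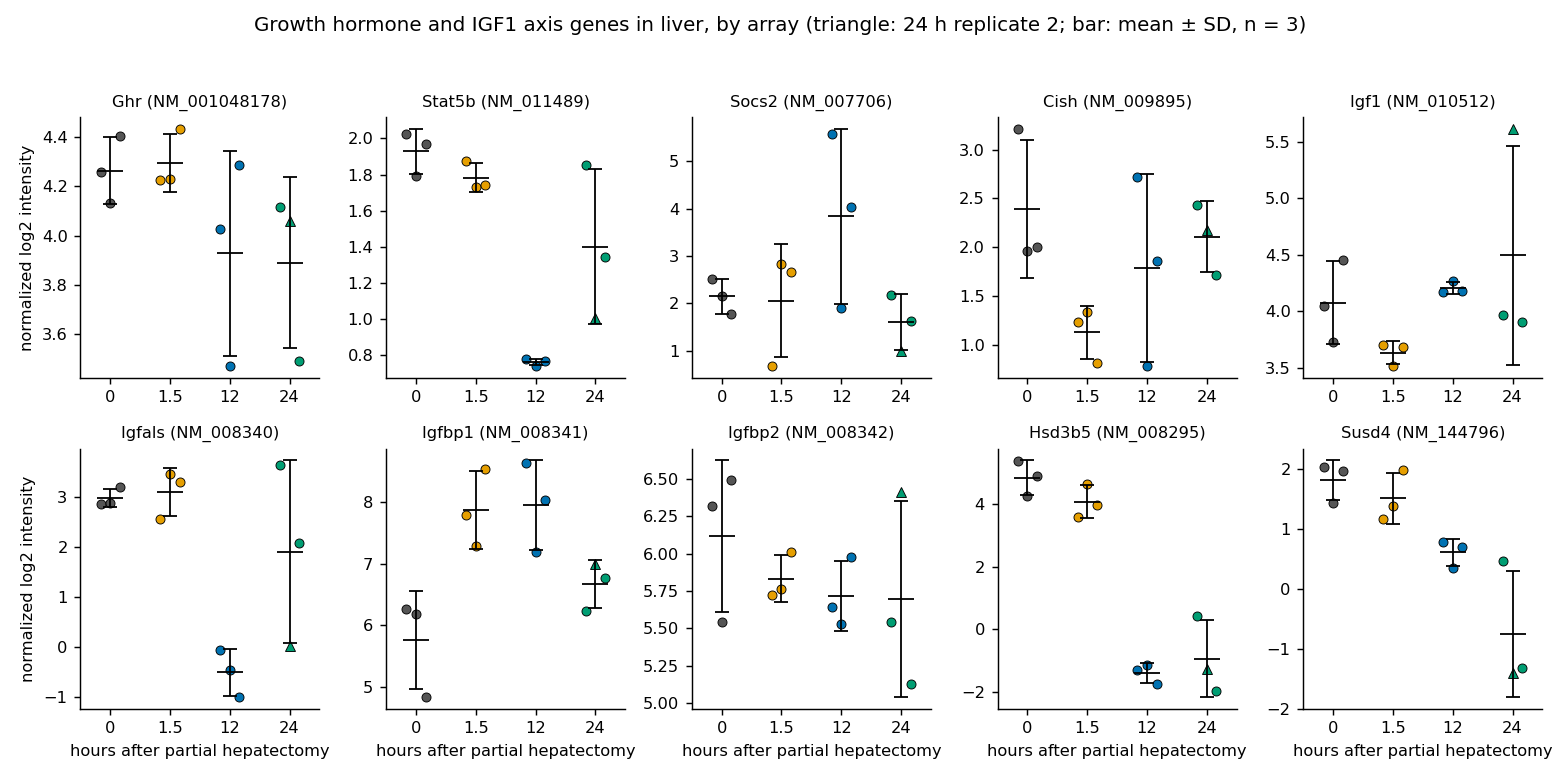
Normalized log2 intensity (vertical axis, own scale for each gene) of the counted probe of each of the 10 genes on the 12 arrays, against hours after partial hepatectomy; bars are the mean ± SD of 3 arrays and the triangle is 24 h replicate 2. The 12 h arrays of Hsd3b5, Igfals and Stat5b lie below all 0 h and 1.5 h arrays, and those of Igfbp1 lie above all 0 h arrays.

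**Figure D2:**
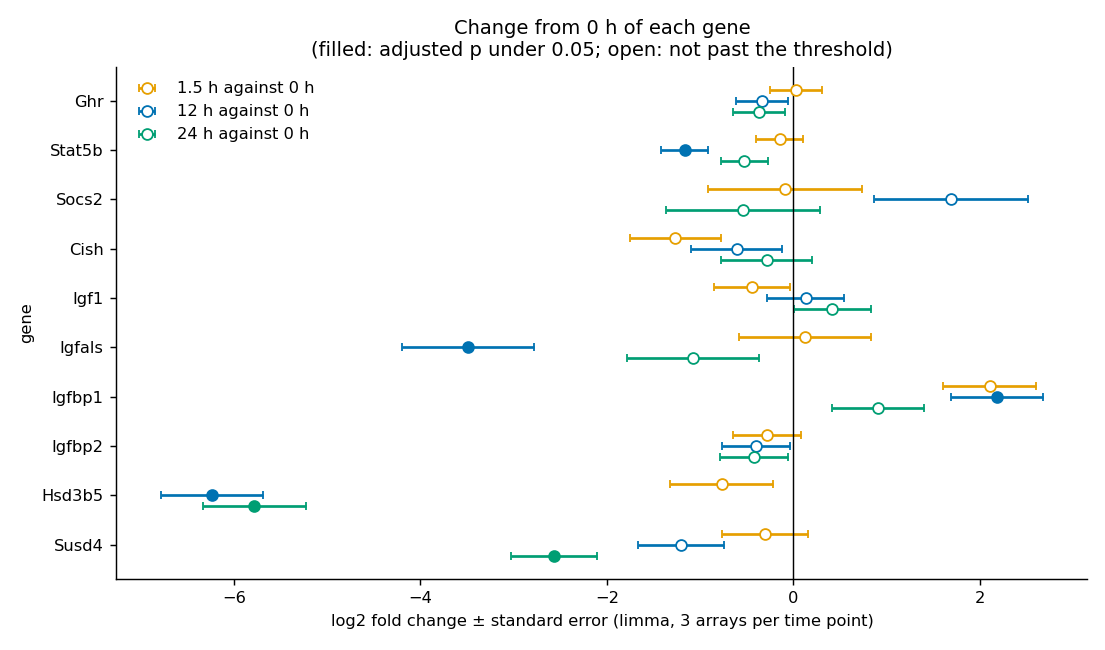
log2 fold change from 0 h ± standard error (horizontal axis) of each gene at 1.5, 12 and 24 h. Filled points, past an adjusted p of 0.05 in limma, are Stat5b, Igfals, Igfbp1 and Hsd3b5 at 12 h and Hsd3b5 and Susd4 at 24 h.

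Ghr encodes the growth hormone receptor, and the mouse gene also gives a shorter transcript for a secreted growth-hormone-binding protein. Its 2 probes did not move together. The probe for NM_010284 had log2 levels of 4.14, 4.11 and 4.47 at 0 h, 4.18, 4.09 and 4.20 at 1.5 h, 2.95, 1.96 and 2.84 at 12 h, and 3.72, 4.38 and 3.23 at 24 h. All 12 h arrays were below all 0 h and 1.5 h arrays, and the 24 h arrays spanned the gap. The change at 12 h against 0 h was -1.66 ± 0.34 in log2, 3.16-fold lower (limma adjusted p = 0.00935), and -1.57 ± 0.34 against 1.5 h (adjusted p = 0.0181). At 24 h this probe was 1.20 ± 0.34 above 12 h (adjusted p = 0.0467, and 0.0642 without 24 h replicate 2). That call held in only 5 of 25 alternatives, with changes of 0.64 to 1.51.

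The probe for NM_001048178, the brighter and hence the counted one, had levels of 4.26, 4.13 and 4.40 at 0 h, 4.22, 4.23 and 4.43 at 1.5 h, 4.03, 3.47 and 4.28 at 12 h, and 4.12, 4.06 and 3.49 at 24 h. Its 12 h arrays overlapped those at 0 h, and its change of -0.34 ± 0.28 was not past the threshold (adjusted p = 0.396). Counting Ghr by the other probe would thus add 1 member to the 12 h calls. Brightness was the mean over all 12 arrays, and at 0 h the other probe had a mean of 4.24 and this one 4.26. The fall of the other probe at 12 h lowered its mean and so weighed in the choice of the counted probe.

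The within-array difference between the probes, NM_010284 minus NM_001048178, needs no scaling between arrays. It was looked at because the probes were seen to diverge, so it is a description with no test. It was -0.12, -0.02 and 0.06 at 0 h, -0.05, -0.14 and -0.23 at 1.5 h, -1.08, -1.51 and -1.45 at 12 h, and -0.40, 0.32 and -0.26 at 24 h. The 12 h arrays stood apart from the other 9. The shift of the mean from 0 h to 12 h was -1.32 in log2. Other background corrections and normalizations gave shifts of -1.34 to -1.39. Which transcripts each probe detects was not given with the probes and was not tested.

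**Figure D3:**
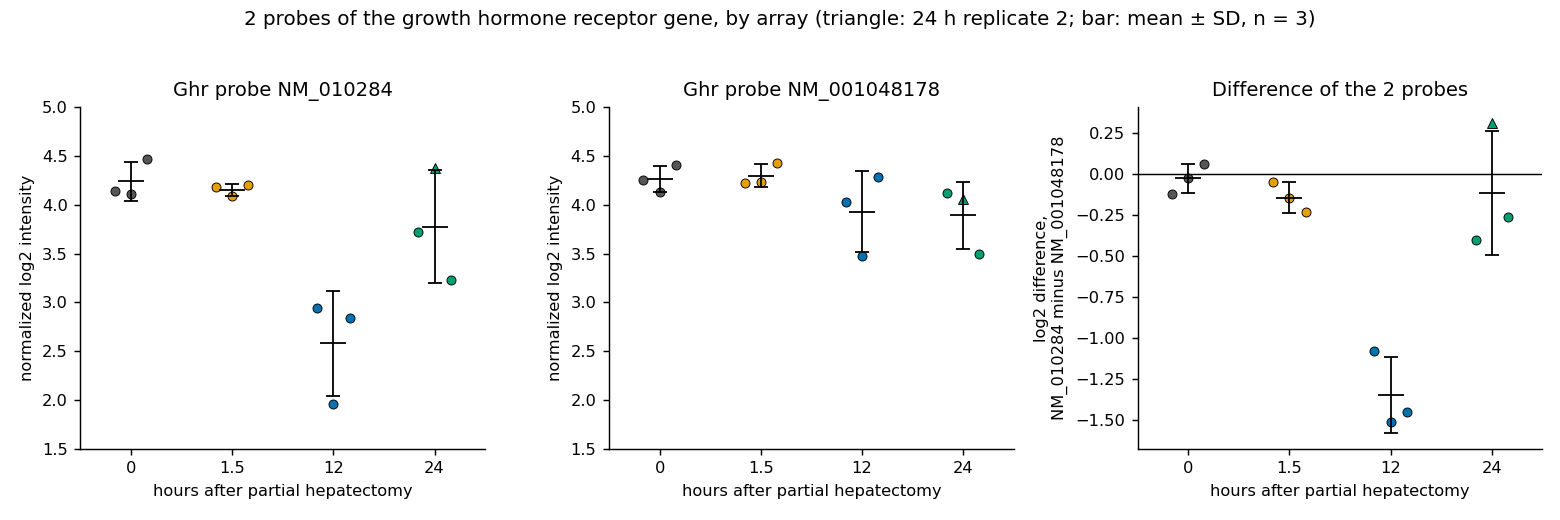
The 2 Ghr probes on the 12 arrays (left and middle, normalized log2 intensity) and their difference on each array (right, log2), against hours after partial hepatectomy; bars are mean ± SD, n = 3, and the triangle is 24 h replicate 2. The difference lies between -1.51 and -1.08 at 12 h and between -0.40 and 0.32 on the other arrays.

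Stat5b, the transcription factor that carries the receptor's signal to the nucleus in hepatocytes, was lower at 12 h. The probe for NM_011489 had log2 levels of 2.03, 1.79 and 1.97 at 0 h, 1.87, 1.73 and 1.74 at 1.5 h, 0.78, 0.74 and 0.77 at 12 h, and 1.86, 1.00 and 1.34 at 24 h. The 3 arrays at 12 h lay close together and below every other array. Stat5b fell by 1.17 ± 0.25 in log2 at 12 h against 0 h, a 2.24-fold change (limma adjusted p = 0.0111), and by 1.02 against 1.5 h (adjusted p = 0.030). The call against 0 h ended without 0 h replicate 1 (-1.12, adjusted p = 0.0542), and the call against 1.5 h ended without any 1 of the 9 arrays at 0, 1.5 or 12 h (adjusted p from 0.0529 to 0.11). The probe for NM_001113563 was at 0.76, 0.71 and 0.76 at 12 h and at 1.88, 1.74 and 1.88 at 0 h. Its change of -1.09 ± 0.41 was of like size, but missed the threshold (adjusted p = 0.0948), with 24 h arrays that ranged from -0.01 to 1.97. At 24 h the NM_011489 probe was 0.64 above 12 h (adjusted p = 0.091), and 0.84 above it without 24 h replicate 2, then past the threshold (adjusted p = 0.0211).

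Socs2 and Cish are targets of STAT5 that damp growth hormone signalling, and both varied widely between arrays of a time point. Where arrays of a time point lay on different slides, spread between mice and between slides cannot be told apart. The 12 h replicates 1 and 2 shared a slide, and were at 5.57 and 1.91 for Socs2 and at 2.72 and 0.78 for Cish. Socs2 had log2 levels of 2.51, 2.16 and 1.78 at 0 h, 0.68, 2.82 and 2.66 at 1.5 h, 5.57, 1.91 and 4.03 at 12 h, and 2.18, 0.99 and 1.64 at 24 h. The 12 h arrays spanned from 1.91 to 5.57, with the lowest inside the range at 0 h. Its change at 12 h was 1.69 ± 0.83 (limma adjusted p = 0.179). It was 2.65 without 12 h replicate 2, then past the threshold (adjusted p = 0.0398), 0.82 without 12 h replicate 1 (0.508), and -0.47 with slide as a fixed block (0.895). At 24 h it was -0.54 against 0 h (adjusted p = 0.738), and -0.24 without 24 h replicate 2. Its change at 1.5 h was -0.09 over all arrays and -1.47 within the slide that held 1 array at 1.5 h and 3 at 0 h.

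Cish had levels of 3.21, 1.96 and 2.01 at 0 h, 1.23, 1.33 and 0.81 at 1.5 h, 2.72, 0.78 and 1.86 at 12 h, and 2.43, 2.18 and 1.71 at 24 h. All 1.5 h arrays were below all 0 h arrays, and the change of -1.27 ± 0.49 did not pass (adjusted p = 0.719). The later groups overlapped 0 h, with -0.29 at 24 h (adjusted p = 0.766) and -0.32 without 24 h replicate 2. Neither gene passed in any of the 5 contrasts between time points or in the F test.

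Igf1, the growth factor that STAT5b drives in liver, gave no call with any of its 4 probes. The counted probe, for NM_010512, had log2 levels of 4.05, 3.73 and 4.46 at 0 h, 3.70, 3.52 and 3.68 at 1.5 h, 4.17, 4.27 and 4.18 at 12 h, and 3.97, 5.61 and 3.90 at 24 h. The 12 h arrays fell inside the 0 h range, and 24 h replicate 2 stood above all others. The change at 12 h against 0 h was 0.13 ± 0.41 (limma adjusted p = 0.829) and those of the other 3 probes ran from 0.10 to 0.22. At 24 h it was 0.42 ± 0.41 (adjusted p = 0.593), and -0.14 without 24 h replicate 2. At 1.5 h all 3 arrays of this probe were below the 0 h arrays, with a change of -0.44 ± 0.41 (adjusted p = 0.801).

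Igfals encodes the acid-labile subunit, which holds IGF1 in a large complex in blood. Its levels were 2.87, 2.89 and 3.20 at 0 h, 2.57, 3.46 and 3.31 at 1.5 h, -0.07, -0.45 and -1.0 at 12 h, and 3.65, 0.01 and 2.08 at 24 h. The 12 h arrays were below every other array, and the 24 h arrays ranged from just above them to above all 0 h arrays. Igfals fell by 3.49 ± 0.71 in log2 at 12 h, an 11.3-fold change (limma adjusted p = 0.0083), and by 3.62 ± 0.71 against 1.5 h (adjusted p = 0.0102). It stayed past the threshold at 12 h against 0 h in all 25 alternatives, with changes of -4.21 to -3.11. It was higher at 24 h than at 12 h by 2.42 ± 0.71 (adjusted p = 0.0482), and by 3.37 without 24 h replicate 2 (adjusted p = 0.0023). This call at 24 h against 12 h ended when any other single array was left out (1.55 to 2.64, adjusted p from 0.0507 to 0.129). Against 0 h the 24 h value was -1.07 ± 0.71 (adjusted p = 0.418), and -0.12 without that array.

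Igfbp1 encodes a binding protein that the liver secretes within hours of stress or falling insulin and that takes IGF1 out of free circulation. It had log2 levels of 6.27, 6.18 and 4.84 at 0 h, 7.78, 7.29 and 8.54 at 1.5 h, 8.63, 7.18 and 8.03 at 12 h, and 6.24, 7.0 and 6.77 at 24 h. All arrays at 1.5 h and at 12 h were above all 0 h arrays, while those at 24 h overlapped them. Igfbp1 rose by 2.18 ± 0.50 in log2 at 12 h against 0 h, 4.54-fold (limma adjusted p = 0.0145). Without 0 h replicate 3, the lowest array, the change was 1.72 (adjusted p = 0.0602), without 12 h replicate 1 it was 1.84 (0.0676), and with slide as a fixed block 2.01 (0.301). At 1.5 h the change was 2.10 ± 0.50, 4.30-fold, and of the same size as at 12 h, but was not past the threshold over all probes (adjusted p = 0.387). Within the slide that holds 0 h and 1.5 h arrays the change was 2.02. With 1.5 h replicate 1 and 24 h replicate 2 left out it was 2.15 and passed (adjusted p = 0.0252), as did 25.1% of all probes. No slide then holds both 0 h and 1.5 h arrays, so slide and time cannot be told apart in that pass. At 24 h Igfbp1 was 0.91 ± 0.50 above 0 h (adjusted p = 0.33), and 0.74 without 24 h replicate 2, where its 7.0 is near the highest level on that array.

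Igfbp2, an IGF-binding protein of liver and other tissues, was at 6.32, 5.54 and 6.49 at 0 h, 5.72, 5.76 and 6.01 at 1.5 h, 5.64, 5.53 and 5.98 at 12 h, and 5.54, 6.41 and 5.13 at 24 h. All groups overlapped, and its changes against 0 h ran from -0.42 to -0.29, with adjusted p from 0.434 to 0.839 in limma. Without 24 h replicate 2 the 24 h value was -0.78 (adjusted p = 0.0945). The 2 binding proteins thus had different values at 12 h: 2.18 for Igfbp1 and -0.40 for Igfbp2, a difference that was not itself tested.

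Hsd3b5 encodes a male-specific 3-keto-steroid reductase of mouse liver that depends on pulsed growth hormone. It had log2 levels of 5.37, 4.26 and 4.91 at 0 h, 3.60, 4.65 and 3.97 at 1.5 h, -1.30, -1.13 and -1.73 at 12 h, and 0.42, -1.26 and -1.97 at 24 h. Every array at 12 and 24 h was below every array at 0 and 1.5 h. Hsd3b5 fell by 6.23 ± 0.55 in log2 at 12 h against 0 h, 75.3-fold (limma adjusted p = 0.000126), and by 5.78 ± 0.55 at 24 h, 55-fold (adjusted p = 0.000389), or 49.2-fold without 24 h replicate 2 (adjusted p = 0.000659). Against 1.5 h it fell by 5.46 ± 0.55 at 12 h (adjusted p = 0.000394), and by 5.53 within the slide that holds both times (adjusted p = 0.0153). The 12 h call held in all 25 alternatives, with changes of -6.77 to -5.38, and the 24 h call in 24 of 25, the exception being slide as a fixed block (-5.82, adjusted p = 0.153). Close relatives of Hsd3b5 exist in the mouse genome, and cross-hybridisation was not tested.

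Susd4, a sushi-domain protein of the complement regulator kind, had log2 levels of 2.03, 1.43 and 1.97 at 0 h, 1.17, 1.37 and 1.98 at 1.5 h, 0.78, 0.35 and 0.69 at 12 h, and 0.46, -1.40 and -1.32 at 24 h. The 12 h arrays were below all earlier ones, and the 24 h arrays overlapped those at 12 h and were below all 0 h arrays. The change of -1.21 ± 0.46 at 12 h was not past the threshold (limma adjusted p = 0.102). At 24 h Susd4 fell by 2.57 ± 0.46 against 0 h, 5.92-fold (adjusted p = 0.0118), and by 2.24 without 24 h replicate 2 (adjusted p = 0.011). Without 0 h replicate 1 the change was -2.46 and missed the threshold (adjusted p = 0.0618), as it did with slide as a fixed block (-2.88, adjusted p = 0.334). The 12 h change of -1.21 passed without 24 h replicate 1 (adjusted p = 0.0226) or 24 h replicate 2 (0.0332).

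Time points that shared a slide allowed some changes to be read without crossing slides. On the slide with 2 arrays at 1.5 h and 2 at 12 h, Igfals changed by -3.64 (limma adjusted p = 0.0181), Stat5b by -0.98 (0.0328) and Hsd3b5 by -5.53, close to the values over all arrays. The Ghr probe for NM_010284 was at -1.69 (adjusted p = 0.0636). On the slide with 1 array at 12 h and 2 at 24 h, Igfals was 3.86 higher at 24 h (adjusted p = 0.0449), a comparison in which the lone 12 h array is assumed to vary like the others. Igf1 was at -0.24 there, against 0.29 over all arrays. The 12 h and 24 h changes against 0 h cross slides throughout, so slide and time cannot be told apart in them except through a fit with slide as a term. With slide as a fixed block, 1.5 h replicate 1 alone links the 0 h arrays to the other slides, so those values rest on that array.

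**Figure D4:**
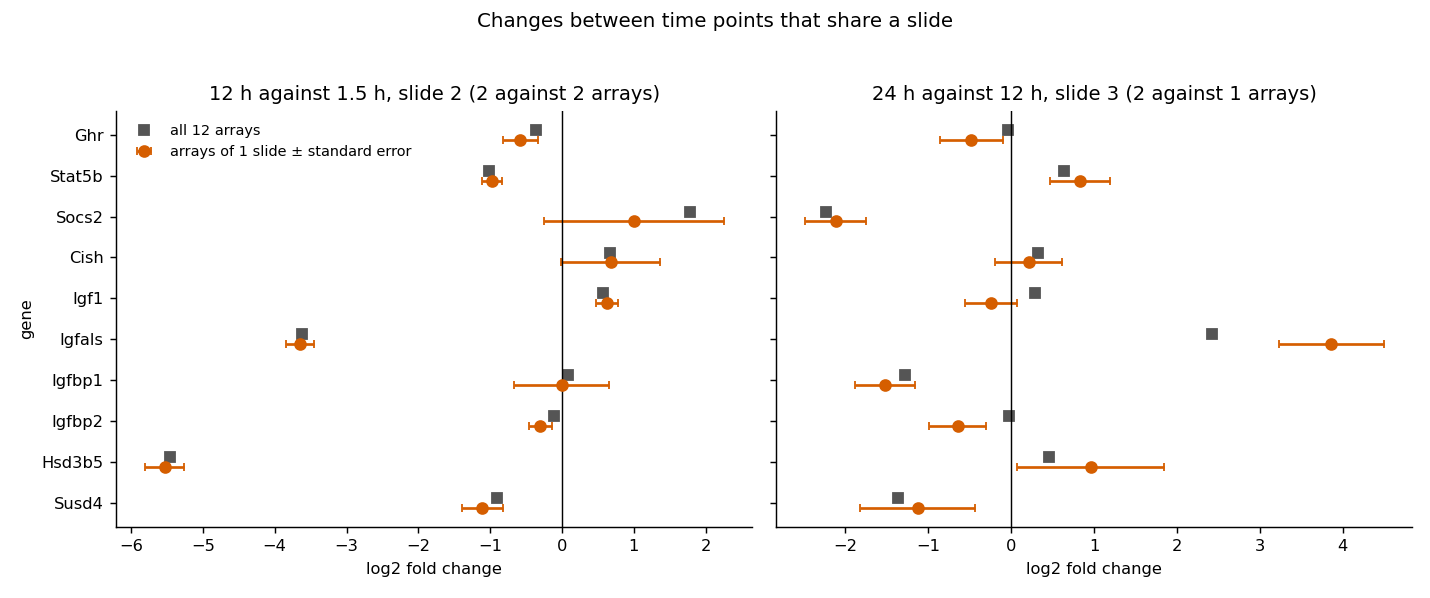
log2 fold change (horizontal axis) of each gene over all 12 arrays (squares) and within 1 slide (circles, ± standard error), for 12 h against 1.5 h (left) and 24 h against 12 h (right). Hsd3b5 at -5.53 and Igfals at -3.64 lie near their all-array values in the left panel, and Igfals lies at 3.86 within the slide and 2.42 over all arrays in the right panel.

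Genes whose course over the 12 arrays lay nearest to that of 3 members were found by the mean absolute difference of log2 values centred on 0 h, over 12256 genes. Nearest to Hsd3b5 were Keg1, the regulator of G-protein signalling Rgs16 and the related steroid dehydrogenase gene Hsd3b2, at 0.889, 0.980 and 1.00 (median over all genes 3.34). Their mean changes from 0 h were -6.56, -4.47 and -4.31 at 12 h and -4.19, -5.76 and -4.66 at 24 h. Nearest to Igfbp1 were Itprip, the transcription factor Klf4 and the histone gene H3f3b, at 0.301, 0.423 and 0.489 (median 1.45), with mean changes of 1.85, 2.44 and 2.01 at 1.5 h. Nearest to Igf1 were Gtf2e1, Rnf168 and Wdr26 at 0.125, 0.130 and 0.145 (median 0.606).

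The counts of the lists that follow stand beside 15.3% of all probes passing at 12 h (17.6% with an NM accession) and 5.46% at 24 h. Of 16 other genes of the receptor pathway 25.0% passed at 12 h and 6.25% at 24 h. At 12 h against 0 h 4 rose (Socs3, Stat3, Socs1 and Ptpn1) and 12 did not pass, with a list median of 0.10 (0.42 over all probes, 0.27 over named genes). These 4 are inhibitors of cytokine receptors, a transcription factor of the IL-6 family and a phosphatase that acts on JAK2, and they respond to other cytokines too. Socs1, an inhibitor of JAK kinases, was at -4.02, -3.54 and -4.26 at 0 h and at 2.60, -1.02 and 1.19 at 12 h, all higher. It rose 29.1-fold (4.87 ± 0.84 in log2, limma adjusted p = 0.00365), and was 3.01-fold above 0 h at 24 h (adjusted p = 0.313), or 1.81-fold without 24 h replicate 2 (0.502). Socs3 was at 1.75, 0.18 and 0.34 at 0 h, 5.51, 3.62 and 4.54 at 12 h, and 4.40, 5.25 and 3.87 at 24 h, above 0 h throughout. It rose 13.9-fold at 12 h (adjusted p = 0.00203) and 13.5-fold at 24 h (adjusted p = 0.00588), where it was the 1 call of the list. Stat3 rose 2.92-fold (adjusted p = 0.004) and Ptpn1 2.83-fold (adjusted p = 0.0102) at 12 h, the latter call ending without 12 h replicate 1 (adjusted p = 0.0514). The kinase gene Jak2 was at -0.46 ± 0.39 (adjusted p = 0.406) and Stat5a, the sister of Stat5b, at -0.65 ± 0.29 (adjusted p = 0.144).

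Among 16 other genes of the IGF system, 4 rose at 12 h (Igfbp6, Pappa2, Stc1 and Igf2bp2), 1 fell (Igf2r) and 11 did not pass (31.2% passed), with a list median of 0.34. At 24 h 2 rose (Igfbp5 and Igfbp6, 12.5%). Igf2r, the receptor that clears IGF2, was at 2.95, 2.98 and 3.19 at 0 h, 1.70, 1.48 and 1.50 at 12 h, and 3.11, 2.83 and 2.67 at 24 h. It fell 2.79-fold at 12 h (limma adjusted p = 0.0021), and at 24 h was at -0.17 ± 0.23 (adjusted p = 0.701). Igf2bp2, an RNA-binding protein, rose 3.17-fold at 12 h (adjusted p = 0.000956). Igfbp6 rose 3.82-fold at 12 h (adjusted p = 0.00161) and 4.35-fold at 24 h (0.00261), from a level at 0 h where 2 of 3 arrays were well above background. Igfbp3, the main carrier of IGF1 in blood and made in liver outside hepatocytes, was 1.75-fold higher at 12 h without passing (adjusted p = 0.0685). The IGF1 receptor gene Igf1r was at -0.03 ± 0.31 at 12 h (adjusted p = 0.954). Pappa2 and Stc1 were not well above background on any 0 h array. Pappa2 was at least 2.30-fold higher at 12 h (limma adjusted p = 0.0493), its 12 h mean set against the lowest signal well above background on each 0 h array, and for Stc1 (adjusted p = 0.0456) no such bound could be given. The call of Pappa2 ended without any 1 of the 0 h and 12 h arrays, 1.5 h replicate 2 or 3, or 24 h replicate 3 (adjusted p from 0.0578 to 0.141). That of Stc1 ended without any 0 h array, 12 h replicate 1 or 2, 1.5 h replicate 1, or 24 h replicate 1 or 3 (0.0529 to 0.162), and that of Igfbp5 without any array but 24 h replicates 1 and 2 (0.0544 to 0.181).

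Of 19 other male-biased genes that depend on growth hormone, 3 fell at 12 h (Selenbp2, Nudt7 and Keg1), 1 rose (Moxd1) and 15 did not pass. At 24 h 4 fell (Slco1a1, Selenbp2, Nudt7 and Keg1) and 15 did not pass, so that 21.1% passed at each time. The list medians were -0.34 and -0.81 (0.42 and -0.15 over all probes, 0.27 and -0.07 over named genes). Keg1 was at 2.94, 3.34 and 3.29 at 0 h, -2.96, -3.21 and -3.94 at 12 h, and 0.89, -3.32 and -0.58 at 24 h, with no overlap of 12 h and 0 h. It fell 94.2-fold at 12 h (limma adjusted p = 0.000588) and 18.3-fold at 24 h (adjusted p = 0.0143), or 8.20-fold without 24 h replicate 2 (adjusted p = 0.00186). Slco1a1, an anion transporter, was 1.77-fold lower at 12 h (adjusted p = 0.0711) and fell 4.29-fold at 24 h (adjusted p = 0.00258). Selenbp2 fell 4.41-fold at 12 h (adjusted p = 0.00574) and 10.9-fold at 24 h (adjusted p = 0.00249), and Nudt7 3.70-fold at 24 h (0.0109). For both, the spot on 24 h replicate 2 was dropped as an outlier, so 2 arrays stand for 24 h. The call of Keg1 at 24 h ended without any 1 of the 0 h arrays (adjusted p from 0.051 to 0.064), that of Nudt7 at 12 h without any array at 0, 1.5 or 12 h (0.0583 to 0.143), and that of Nudt7 at 24 h without 0 h replicate 1 (0.0552) or 24 h replicate 3 (0.053). The pheromone-carrier genes Mup1 and Mup20 were at 0.53 ± 0.48 and 0.11 ± 0.23 at 12 h, both short of the threshold (adjusted p = 0.434 and 0.746). At 24 h against 0 h they were at -1.11 and -0.68 (adjusted p = 0.214 and 0.125). Mup1 passed at 24 h against 12 h (-1.64, adjusted p = 0.0478). That call ended without 24 h replicate 2 (-1.19, adjusted p = 0.0786). It also ended without any 1 of the 0 h arrays, 1.5 h replicate 2 or 3, or 12 h replicate 1 or 2. Mup, Gstp and Cyp4a12 genes have near-identical copies that a probe may not tell apart.

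Of 20 female-biased genes that male growth hormone pulses hold down, 17 were measured. At 12 h 3 rose (Cyp2b9, Cyp17a1 and Sult1e1), 2 fell (Cyp3a41a and Abcd2) and 12 did not pass, and at 24 h 3 rose (Cyp17a1, Sult1e1 and Trim24) and 2 fell (Cyp2a4 and Cyp3a41a), 29.4% at each time. Sult1e1, the oestrogen sulfotransferase, was at -5.07, -4.39 and -5.53 at 0 h, where 1 of 3 arrays was well above background, and at 2.30, 1.91 and 3.34 at 12 h and 0.00, 3.19 and 0.32 at 24 h. It rose 183-fold at 12 h (limma adjusted p = 0.000236) and 71.9-fold at 24 h (adjusted p = 0.00149), or 35.7-fold at 24 h without 24 h replicate 2 (0.000251). The size of these folds rests on 0 h signals near background. Sult1e1 is also a gene of adipose tissue, whose markers other than Adipoq were higher at 12 h, and their part was not tested. Cyp17a1, a steroid hydroxylase, rose 6.88-fold at 12 h (adjusted p = 0.00467) and 11.5-fold at 24 h (0.00376), or 17.3-fold without 24 h replicate 2 (0.000231). Cyp2a4 was 1.66-fold lower at 12 h (adjusted p = 0.158) and fell 15.3-fold at 24 h (adjusted p = 0.000209), and Cyp3a41a fell 3.34-fold at 12 h (0.0283) and 14.8-fold at 24 h (0.0013). These 2 P450 genes have close copies, and a probe may read more than 1 of them. The list held calls in both directions at both times. Calls ended without any 1 of the 0 h arrays for Trim24 at 24 h (adjusted p from 0.0617 to 0.0989), without those or 12 h replicate 1 or 3 for Cyp2b9 (0.0507 to 0.101), without those or 12 h replicate 2 or 3 for Cyp3a41a at 12 h (0.0503 to 0.11), and without those or any 12 h array for Abcd2 (0.06 to 0.106).

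Of 11 genes that respond to fasting and insulin, 4 fell at 12 h (G6pc, Ppargc1a, Ppp1r3c and Sesn1), 1 rose (Angptl4) and 6 did not pass (45.5% passed), with a list median of -0.73. At 24 h 0 were called lower and 1 higher (Angptl4, 2.21-fold, limma adjusted p = 0.0454, 9.09%), with 2 of 11 at an unadjusted p under 0.05. G6pc, the last enzyme of glucose output, was at 6.36, 5.40 and 6.86 at 0 h, 1.36, 4.35 and 3.43 at 12 h, and 4.83, 4.95 and 5.05 at 24 h. It fell 8.92-fold at 12 h (limma adjusted p = 0.00754). Ppargc1a, a coactivator of fasting genes, fell 4.62-fold (adjusted p = 0.00882) and Ppp1r3c, a glycogen-targeting subunit, 4.16-fold (adjusted p = 0.00639). Tat was 1.63-fold above 0 h at 12 h (adjusted p = 0.0912). Igfbp1 and G6pc, both induced by FOXO1 in fasting, were at 2.18 and -3.16 at 12 h. Irs2 of the same list was at -2.47 at 24 h against 12 h (limma adjusted p = 0.0272) and at -0.84 at 24 h against 0 h (0.435). Its 12 h mean thus lay above its 0 h mean, as for Igfbp1, but Irs2 was not called at 12 h against 0 h. The call of Irs2 at 24 h against 12 h ended without 12 h replicate 1 (-2.10, limma adjusted p = 0.121) or 12 h replicate 2 (-2.42, 0.0819). Why these genes differ was not tested. The call of Angptl4 at 12 h ended without any 1 of the 12 h arrays or 0 h replicate 1 or 2 (adjusted p from 0.0528 to 0.0908), and its call at 24 h without any array but 1.5 h replicate 1 and 24 h replicate 2 (0.0538 to 0.184). The call of Sesn1 ended without replicates 1 or 2 at 0 h or 1 or 3 at 12 h (0.0509 to 0.0609). At 1.5 h limma called 0 genes of these 5 lists, with 7 of 79 at an unadjusted p under 0.05. The share of all probes at that unadjusted cut was not counted, so these counts have no background.

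**Figure D5:**
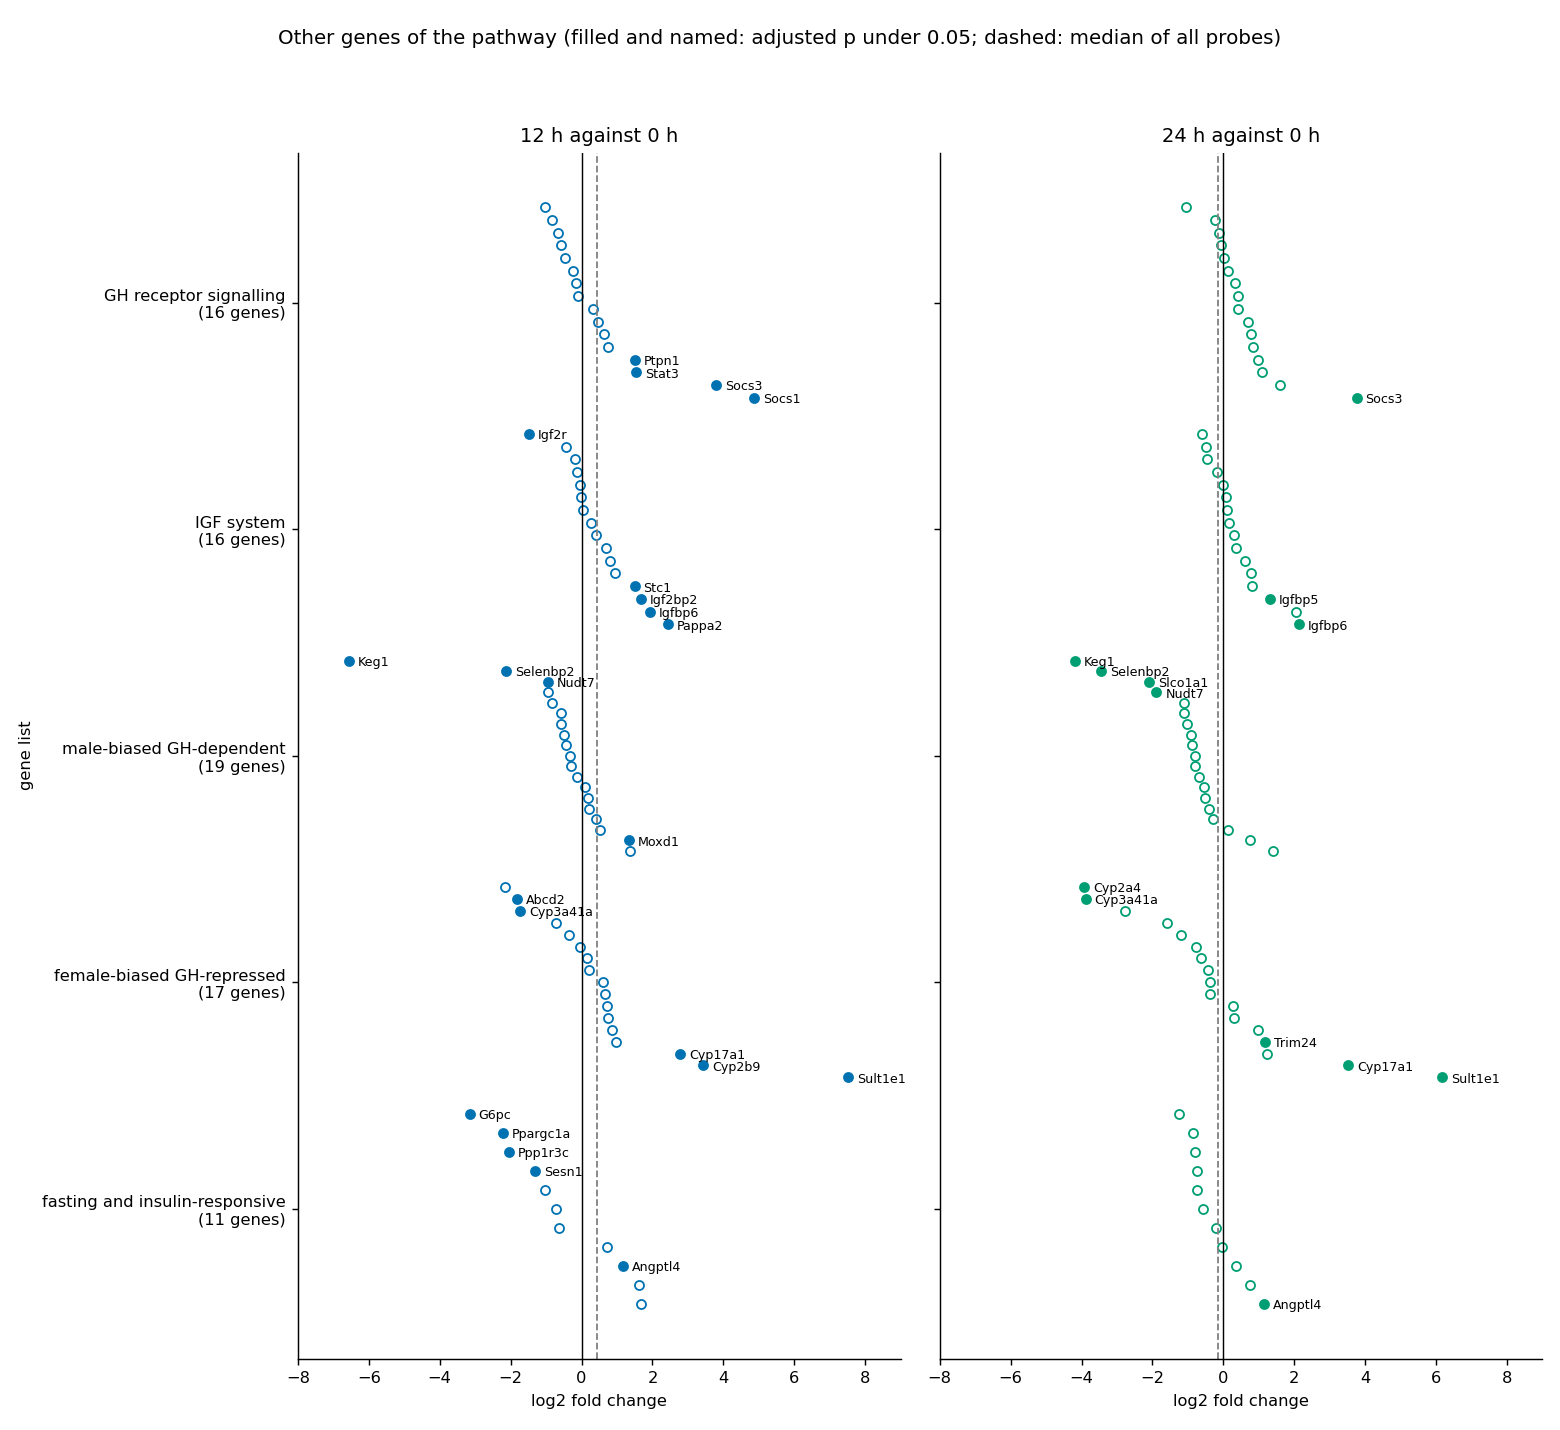
log2 fold change (horizontal axis) of every measured gene of 5 lists (rows) at 12 h (left) and 24 h (right) against 0 h; filled and named points are past an adjusted p of 0.05 in limma, and the dashed line is the median of all probes. Keg1 lies at -6.56 at 12 h, Sult1e1, well above background on 1 of 3 arrays at 0 h, lies at 7.52, and the female-biased list holds filled points on both sides of 0 at both times.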

How the data were processed

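The members and the gene lists were chosen with earlier results of these data known. Total RNA was labelled with Cy3 and hybridised to 1-colour Agilent arrays. The scans were read with Agilent Feature Extraction 10.5.1.1, per the submitters' processing notes. The deposited scanner files hold, per the file headers, a processed intensity (background-subtracted, linear scale) and the median intensity of spot and background. A second set of values deposited by the authors is on a log2 scale, covers part of the probes and served as an alternative. Its columns share nearly the same quantiles, and its normalization is not given in the sources used here.

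Control spots and outlier spots were dropped and replicate spots averaged (37246 probes). Each processed intensity was divided by its array's 75th percentile before log2 was taken. Probes well above background on at least 3 of 12 arrays were kept (31168). The number of arrays limits the precision. limma 3.58.1 in R 4.3.3 (lmFit, eBayes) was fitted to all 12 arrays, two-sided, with a threshold of 0.05 on the adjusted p; it was tested on simulated data with 200 changed probes. The spread of 24 h replicate 2 enters every contrast. Accessions were named through a mouse RefSeq table (21963 of 22522 NM probes matched), and sequences came from RefSeq. P-values measure the spread between arrays, and the main fit takes arrays of 1 slide as independent. The fit with slide as a random block put the correlation of arrays within a slide at 0.853. In the fasting and insulin list 1 gene is not reported here. Named beside the members were the 4 genes of each list with the smallest F-test adjusted p and the genes nearest in course to Igf1, Igfbp1 and Hsd3b5. Chosen after their values were seen were the other genes a count refers to and Jak2, Stat5a, Igf1r, Irs2, Mup1 and Mup20.

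Alternatives were normexp background correction (offset 50), quantile normalization, the 75th percentile of NM probes, the authors' values, other filters on dim probes, moderation with a trend, slide as a fixed or random block, single slides, the replicate number as a block, only the groups compared, the mean of a gene's probes and leaving out each array. Leaving out both 24 h replicate 2 and 1.5 h replicate 1, and the alternatives for the Ghr probe pair and the lists, were added after seeing the data.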

Additional observations from a re-analysis of the deposited data

How the results depend on the processing

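Of the members called, Hsd3b5 and Igfals at 12 h against 0 h and Igfals and Hsd3b5 at 12 h against 1.5 h kept their direction and stayed past the threshold in every alternative run. At 12 h against 0 h 4 members passed (15.3% of all probes), and 2 with normexp (2.16%) or slide as a fixed block (4.15%), which ended the calls of Igfbp1 (adjusted p = 0.084 and 0.301) and Stat5b (0.103 and 0.106). At 24 h against 0 h 2 passed (5.46%), 0 with slide as a fixed block (0.266%), and 1 with slide as a random block (0.93%) or only the groups compared (0.388%). At 24 h against 12 h 1 passed (13.0%), 0 with normexp (0.613%), the percentile of NM probes (12.4%), no filter (6.96%), the replicate block (4.05%) or only the groups compared (0.0%). There 2 passed with probes well above background on all arrays (23.0%), slide as a random block (13.0%) or 24 h replicate 2 and 1.5 h replicate 1 (the 2 arrays) left out (27.1%), and 3 with the authors' values (28.5%). At 1.5 h 1 passed (Igfbp1) with the 2 arrays left out, where 25.1% of all probes passed, against 0 with all arrays (0.0225%). With the 2 arrays left out no slide holds both 0 h and 1.5 h arrays, so slide and time cannot be told apart in that setting. In the F test 5 passed (16.2%), and 3 with normexp (2.2%), slide as a fixed (15.2%) or random block (19.3%) or the replicate block (10.1%). Leaving out 1 array gave 3 to 5 members at 12 h, 1 to 2 at 24 h, 2 to 3 at 12 h against 1.5 h, 0 to 2 at 24 h against 12 h and 2 to 5 in the F test. Slide was fitted as a term, but that fit leaves 24 h replicate 2 without weight, since it is alone on its slide.

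All reversals were of values not past the threshold, and their cause was not tested. With the percentile of NM probes they were Ghr NM_010284 (0.011) and Socs2 (0.0019) at 1.5 h. With normexp they were Ghr NM_001048178 (0.40) and Igfbp2 (0.45) at 24 h against 12 h, Igfbp1 (-0.24) at 12 h against 1.5 h and Stat5b (0.0105) at 1.5 h. Igfbp1 at 12 h against 1.5 h was also at -0.11 with quantile normalization and the authors' values, and at -0.0072 with slide as a fixed block and within slide 2. Ghr NM_001048178 was at -0.0397 at 1.5 h with slide as a fixed block and within slide 1, and averaging its probes gave -0.0271 at 1.5 h and 0.58 at 24 h against 12 h. Igf1 was at -0.0028 at 24 h with slide as a fixed block and -0.14 with the 2 arrays left out, and at 24 h against 12 h at -0.24, -0.0801, -0.24 and -0.27 with slide as a fixed block, slide as a random block, within slide 3 and with the 2 arrays left out. Igfals at 1.5 h was at -0.42, -0.45 and -0.42 with slide as a fixed block, as a random block and within slide 1. Socs2 was at 0.59 at 1.5 h with the 2 arrays left out, and at -0.47 and -0.12 at 12 h with slide as a fixed and as a random block. Values that changed sign without single arrays ran, at 1.5 h, from -0.1504 to 0.0295 for Ghr NM_010284, from -0.0369 to 0.1013 for Ghr NM_001048178, from -0.0475 to 0.3996 for Igfals and from -0.4779 to 0.59 for Socs2. They ran from -0.0444 to 0.3215 for Igf1 at 12 h, and at 24 h from -0.14 to 0.7143 for Igf1 and from -0.5027 to 0.12 for Cish. At 12 h against 1.5 h they ran from -0.26 to 0.4604 for Igfbp1. At 24 h against 12 h they ran from -0.1822 to 0.7852 for Cish, from -0.2653 to 0.1619 for Ghr NM_001048178, from -0.2236 to 0.9692 for Hsd3b5, from -0.2711 to 0.5837 for Igf1 and from -0.3812 to 0.2612 for Igfbp2.

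Over all probes, 4775 passed at 12 h, 673 with normexp, 1295 with slide as a fixed block, 2640 as a random block, 15587 with only the groups compared, 15342 without 24 h replicate 2 and 17500 with the 2 arrays left out. At 24 h 1701 passed, and 189, 83, 290, 121, 5288 and 6959 in the same order. At 1.5 h 7 passed (2, 17, 65, 0, 185 and 7818), at 12 h against 1.5 h 2596 (495, 4694, 5585, 3868, 6265 and 5134) and at 24 h against 12 h 4063 (191, 2766, 4062, 0, 4915 and 8455). Of the 12 h calls 46.1% were higher, 26.6% with normexp and 67.5% with only the groups compared. The deviations of same-numbered arrays had correlations of -0.42 to 0.41 over 18 pairs. Those of arrays of different number had correlations of -0.49 to 0.51 over 36 pairs. With few arrays per time point, and slides that differ between time points, these wide ranges cannot decide whether the numbers pair the mice. The replicate block left 3603 calls at 12 h and 1158 at 24 h (1261 between 12 and 24 h). In the member changes 1275 values kept direction and side of the threshold, 67 lost it, 15 gained it and 46 reversed, while 268 counts of the 5 lists stayed within 1.5 times and 112 did not. Probes near background have the least certain levels.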
